A study of Homo sapiens with 2 samples.

Results

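Start-spanning promoter peaks are m6A peaks that carry a promoter label in the authors' annotation and whose interval holds the transcript start given for them, so that their distance to that start is listed as 0. There were 511 of them among 39801 peaks, or 1.28% (95% Wilson interval 1.18 to 1.40%), and they made up 9.20% of the promoter-labelled peaks. They belonged to 500 genes, of which 11 had 2 such peaks, and all 511 gene identifiers were found in RefSeq. All other promoter-labelled peaks lay beside the start: 3583 were downstream of it and 1462 upstream. In this annotation a promoter label replaces any exon or intron label, so such a peak can lie in an exon.

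N6-methyladenosine (m6A) was captured with an antibody from HCCLM3 cells, a human hepatocellular carcinoma line, of WT genotype. The groups were 1 m6A-RIP library, made from the RNA bound by the antibody, and 1 input library of the same kind of cells, with no further allele or treatment in the labels. The RNA was total RNA, extracted with a Magna RIP kit and made into stranded libraries with a SMARTer Pico kit. The series concerns the CREB coactivator CRTC2 and the m6A reader YTHDF2. With 1 library in each group there is no replicate check on any value below, and no test between groups could be made.

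Most m6A is written inside mRNA by the METTL3 and METTL14 complex, in the core sequence GGAC and its relatives, and is densest around stop codons and in long internal exons. At the very start of a transcript another methyl mark occurs: where the base next to the cap is an adenosine, PCIF1 can methylate it to m6Am, which antibodies against m6A also bind. A peak over a transcript start can therefore hold cap-adjacent m6Am, m6A of the same transcript, or m6A of another transcript that runs through the same DNA. The deposited table gives no strand for a peak, and antibody capture does not tell m6A from m6Am.

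Sequences are shown for the 6 start-spanning peaks of highest significance among the named genes whose start matched the RefSeq promoter table (GRCh38.p14), because the base at the start decides whether m6Am is possible. Each runs 5′ to 3′ on the gene's strand from 10 bases before the start to 19 bases after it, and the start base is in capitals.
LOC115308161, chr6:156778499-156778528, minus strand: tagcggccgcCcgccggctcccccatcttg
PGBD3, chr10:49524262-49524291, minus strand: aggaagaggaGgaagatgacgaggtggagg
PPP1R9B, chr17:50150658-50150687, minus strand: tttttttttaAagcgggattaactgttttt
SLMAP, chr3:57757246-57757275, plus strand: gggggaaaagCggccgcgatctcaaaccaa
ZNF841, chr19:52094252-52094281, minus strand: ctctgatttgAaatatgtttaagttgtact
SLC35C1, chr11:45804396-45804425, plus strand: gcgggcgcccAgtgcaccggaggaggtgag

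The start base was A for PPP1R9B, ZNF841 and SLC35C1, C for LOC115308161 and SLMAP, and G for PGBD3. The peaks themselves were centred well away from most of these starts. The summit, the base of highest signal in a peak, lay 1354 bp downstream of the start for PPP1R9B, 306 bp for LOC115308161, 277 bp for SLMAP, 232 bp for SLC35C1 and 107 bp for PGBD3. For ZNF841 it lay 239 bp upstream.

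Across the 511 peaks the median summit stood 76 bp downstream of the start, with quartiles at -62 and 192 bp and extremes at -1966 and 1354 bp. The summit was downstream of the start in 332 peaks (65.0%, 95% Wilson interval 60.7 to 69.0%), upstream in 178 and on the start base in 1, that of FOXL1, a forkhead transcription factor, named here after its values were seen. Within 50 bp of the start lay 95 summits, within 100 bp 179, within 200 bp 338 and within 500 bp 475. The peaks covered a median of 301 bp downstream of the start and 177 bp upstream of it, and a median of 66.4% of a peak's width lay downstream.

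The rule cuts through a broader pile of peaks just inside genes. Of all promoter-labelled peaks, 476 had their summit between 200 and 300 bp downstream of the start, and 68 of these spanned the start. Of the 114 with a summit in the 100 bp after the start, 105 spanned it. The membership line is thin: 62 members had the start within 10 bp of an edge (median fold 3.16), while 64 downstream peaks (median fold 3.60) and 7 upstream peaks (3.62) missed it by no more than 10 bp. Among promoter peaks labelled within 1 kb, the share that spanned the start was 12.6% below 400 bp of width, 17.6% from 400 to 600 bp, 17.9% from 600 to 1000 bp and 33.1% at 1000 bp or more. Wider peaks met the rule more often, which the rule itself favours.

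**Figure D1:**
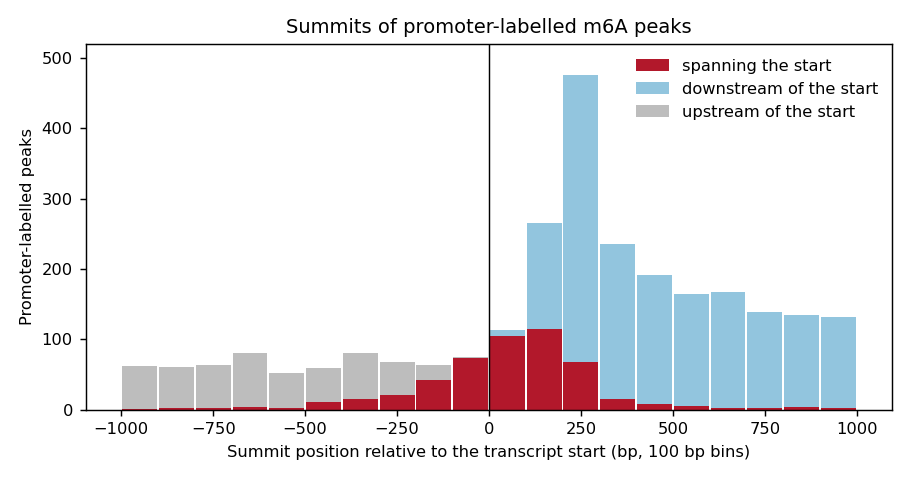
Summit position of promoter-labelled peaks relative to the transcript start (x axis, bp, 100 bp bins) against the number of peaks (y axis), split into peaks spanning the start, downstream of it and upstream of it. The highest bin, 200 to 300 bp downstream, holds 476 peaks of which 68 span the start, while 105 of the 114 peaks in the first bin downstream span it.

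The strength of a peak is given by its fold over input, the authors' ratio of RIP to input signal at the summit. From fold and p-value the number of RIP fragments behind a summit and the local input level could be recovered as whole fragments and expected fragments, and the intervals on single folds below are 95% Poisson intervals on those RIP fragments with the input held fixed. Folds of the 511 peaks ran from 1.35 to 19.7, with a median of 3.68 and quartiles of 2.75 and 4.99. A median summit rested on 15 RIP fragments against an input level of 1.18, and 51 peaks (9.98%) had 3 fragments or fewer. Signal was therefore thin for many members, and 84 had more than 50 fragments.

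A q-value under 0.05 was reached by 310 start-spanning peaks (60.7%, Wilson interval 56.4 to 64.8%), where the background over all peaks was 48.8%. A q-value under 1e-05 was reached by 159 (31.1%), against 25.8% of all peaks. A fold of at least 4 was reached by 217 (42.5%, interval 38.3 to 46.8%), against 33.9% of all peaks. These shares stood above those of the whole list, but the members also rested on more fragments than a median peak of the list, 15 against 9. Over all promoter-labelled peaks the 3 shares were 60.9%, 34.1% and 37.5%, so high significance was not particular to start-spanning peaks. A q-value under 0.05 was reached by 63.5% of promoter peaks downstream of the start, 54.5% of those upstream and 67.3% of 5′ UTR peaks. Every peak of the list with a fold of at least 4 also had a q-value under 0.05. Among peaks with a q-value under 0.05 the median fold was 4.57 for start-spanning peaks and 4.66 for all peaks.

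Set beside other promoter-labelled peaks and 5′ UTR peaks, start-spanning peaks took a middle place in fold without a q-value cut and were the widest. The promoter label takes precedence up to 3 kb from a start, so a 5′ UTR label applies only beyond that. The median fold was 3.68 for start-spanning peaks, 3.53 for promoter peaks downstream of the start, 3.34 for those upstream and 3.98 for peaks labelled 5′ UTR. For promoter peaks labelled within 1 kb it was 3.47 downstream and 3.25 upstream. With a q-value under 1e-05 the order changed, with 5.86 for start-spanning peaks, 5.20 downstream, 5.32 upstream and 5.75 in 5′ UTRs. Median width was 477 bp for start-spanning peaks, 399 bp downstream, 378.5 bp upstream and 378 bp in 5′ UTRs, a gap that the rule helps to make. Median RIP fragments were 15 for start-spanning peaks, 19 downstream, 13 upstream and 20 in 5′ UTRs. Peaks of 1 library pair are no replicates, so these differences were not tested.

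**Figure D2:**
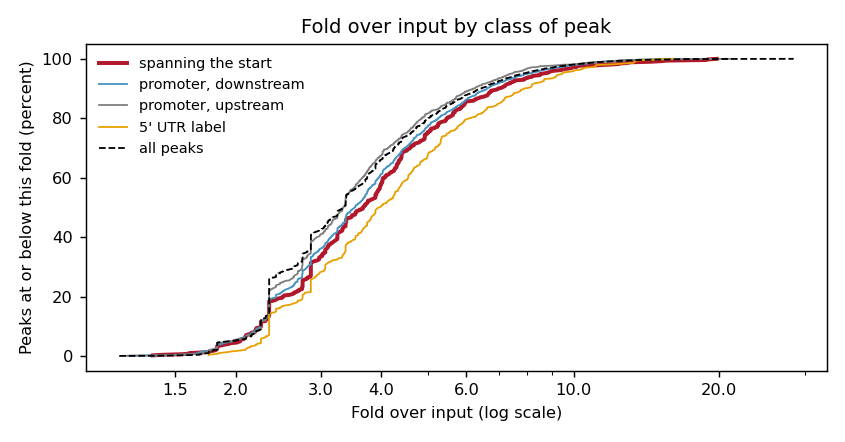
Share of peaks at or below a given fold (y axis, percent) against fold over input (x axis, log scale) for start-spanning promoter peaks, promoter peaks downstream and upstream of the start, 5′ UTR peaks and all peaks. The start-spanning curve lies between the downstream and the 5′ UTR curves over most of the range, with medians of 3.68, 3.53 and 3.98.

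The highest fold belonged to ASMT, the gene of the last enzyme of melatonin synthesis, in the pseudoautosomal region that both sex chromosomes share, where reads cannot be assigned to a chromosome. Its summit had 60 RIP fragments against an input level of 1.0, a fold of 19.7 (15.2 to 25.3), 158 bp downstream of the start. LOC115308161, a long non-coding RNA that begins within the chromatin remodeller gene ARID1B on the opposite strand, had 87 RIP fragments against an input level of 2.0 and a fold of 18.9 (15.2 to 23.3) at chr6:156777797-156779098. Its summit lay in its own body and in that of ARID1B, so the strand of the methylated transcript cannot be told. It also had the highest significance of all 511, with a −log10 p of 58.8.

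PGBD3, a gene derived from a piggyBac transposon, sits inside the DNA repair gene ERCC6 on the same strand. Its peak at chr10:49523878-49524595 had 73 RIP fragments against an input level of 2.07 and a fold of 15.6 (12.3 to 19.5), with the summit in the bodies of both genes. EEF1D, a subunit of the translation elongation factor that reloads eEF1A, had 43 RIP fragments against an input level of 0.888 and a fold of 15.1 (11.1 to 20.2). LINC00342, a long non-coding RNA, had 94 RIP fragments against an input level of 3.26, a fold of 14.4 (11.7 to 17.6), and a summit 300 bp upstream of its start and outside its body. Of these 5 genes only EEF1D had its summit within its own annotated body and no other protein-coding body, and the ASMT peak could not be placed against the RefSeq gene.

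SLC35C1, the Golgi transporter of GDP-fucose, had 61 RIP fragments against an input level of 2.07 and a fold of 13.1 (10.1 to 16.7), from a start 327 bp inside the gene. RNF217, a ubiquitin ligase of the RING-between-RING kind, had 41 RIP fragments against an input level of 1.18 and a fold of 12.5 (9.10 to 16.8). LMLN-AS1, antisense to the metallopeptidase gene LMLN, had 37 RIP fragments against an input level of 1.0 and a fold of 12.4 (8.86 to 16.9), with its summit in both bodies. In all, 15 start-spanning peaks had a fold above 10.

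Deeper but less enriched peaks ranked high by significance. PPP1R9B, which encodes the phosphatase scaffold spinophilin, had 145 RIP fragments against an input level of 14.0 and a fold of 6.27 (5.30 to 7.36) in a peak of 1784 bp whose summit was far inside the gene. ZNF841, a zinc finger gene, had 136 RIP fragments against an input level of 15.0 and a fold of 5.52 (4.64 to 6.51). SLMAP, which encodes a tail-anchored membrane protein of the STRIPAK complex, had 89 RIP fragments against an input level of 4.74 and a fold of 10.1 (8.17 to 12.4). With the input held fixed, the counting intervals of ZNF841 and SLMAP did not overlap, although ZNF841 had more fragments. Error in their input levels, 15.0 and 4.74, is not counted, and the difference was not tested.

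TRPV1, the heat and capsaicin channel, is a case in which the name and the signal come apart. Its peak had 111 RIP fragments against an input level of 8.0 and a fold of 8.02 (6.62 to 9.64), yet the summit lay 942 bp upstream of the TRPV1 start, inside the sedoheptulokinase gene SHPK on the same strand. The pseudogene transcript DTX2P1-UPK3BP1-PMS2P11 had a fold of 11.8 (9.41 to 14.6), and the pseudogene DSTNP2 5.62 (4.70 to 6.66). Both copy sequence from elsewhere in the genome, so reads may be shared with related genes.

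The 5 widest peaks ranged from 2035 to 2871 bp. They were those of SSTR5-AS1 (fold 4.35 from 12 RIP fragments, summit 1966 bp upstream in the somatostatin receptor gene SSTR5), the cyclin-dependent kinase gene CDK13 (6.56), the kinase gene MAP3K10 (4.61), the transcription regulator gene TSC22D4 (4.38) and the microRNA gene MIR4292 (5.69). The summit lay 952 bp inside the gene for MAP3K10, whose peak reached 584 bp upstream of the start, and 1187 bp inside for TSC22D4, whose peak reached 65 bp upstream.

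**Figure D3:**
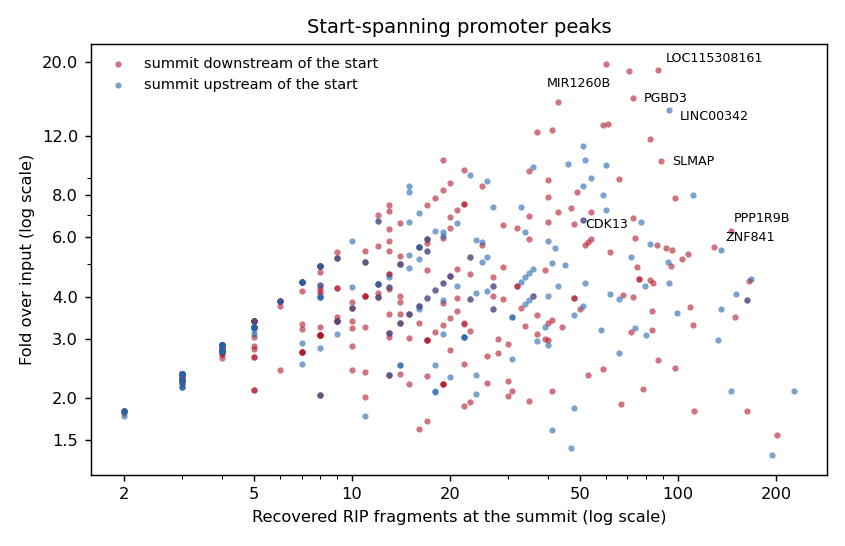
Fold over input (y axis, log scale) against recovered RIP fragments at the summit (x axis, log scale) for start-spanning peaks, coloured by whether the summit is downstream or upstream of the start; the single peak with its summit on the start is not drawn. Peaks with few fragments lie at the lower left, and the 3 highest folds are 19.7 for ASMT (not labelled), 18.9 for LOC115308161 and 18.8 for MIR1260B.

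Not every start in the table is the outer end of a gene. Within 100 bp of the 5′ end of the RefSeq gene lay 308 of the starts, 187 were internal starts of shorter transcripts, 7 were outside the RefSeq gene and 9 could not be placed. Internal starts stood a median of 1684 bp from the gene's end, with quartiles of 397 and 19537 bp. The median fold was 3.74 at gene ends and 3.55 at internal starts, and a q-value under 0.05 was reached by 57.8% of peaks at gene ends and 65.8% at internal starts. A peak over an internal start can hold an ordinary internal exon of the longer transcript.

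The body that held the summit was examined for the 504 peaks on the main chromosomes. In 313 (62.1%, Wilson interval 57.8 to 66.2%) the summit lay in the body of its own gene and of no other protein-coding gene, in 76 (15.1%) in its own and another coding gene, in 59 (11.7%) in another coding gene only, in 23 in a non-coding or pseudogene body only, and in 31 in no gene body. For the other 2, ASMT and the small nucleolar RNA SNORA59B, the RefSeq gene stands on another chromosome of the table and the own body could not be placed. The 59 peaks in another coding gene only had a median fold of 4.28, and 47 of them (79.7%) had a q-value under 0.05. The 313 in their own gene alone had a median fold of 3.48, with 57.8% under that q-value. The 59 peaks rested on a median of 24 RIP fragments and the 313 on 13, and the part of depth in the difference was not tested.

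Upstream summits carry most of these other-gene peaks. Of 174 upstream summits, 50 lay in another coding gene only and 31 in no gene body, whereas of 329 downstream summits 9 lay in another coding gene only and 0 in no gene body. A summit downstream of a start mostly lies in the gene's own body by position alone, as 315 of the 329 did. The downstream side of the contrast thus follows from position, and how upstream summits divide among other bodies was not tested. All 73 upstream summits that fell in the own gene belonged to internal starts, which position nearly requires. The median fold was 3.93 for peaks with upstream summits and 3.47 for those with downstream summits, and a q-value under 0.05 was reached by 66.9% of the upstream and 57.2% of the downstream ones. Peaks with upstream summits also rested on more RIP fragments (median 18 against 13.5) and were wider (median 520.5 against 457 bp). The part of depth and width in the difference was not tested.

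Where another coding gene held the summit, its strand was the same as that of the assigned gene in 44 peaks, the opposite in 77, and mixed or unknown in 15. Together they made 136 start-spanning peaks (26.6%, interval 23.0 to 30.6%), compared with 17.7% of promoter peaks downstream of the start, 49.8% of those upstream and 25.2% of 5′ UTR peaks. The start of a gene on the opposite strand also lay inside the peak in 19 start-spanning peaks (3.72%), and in 12 that gene was protein-coding. The share was 0.586% for promoter peaks downstream of the start, 0.479% for those upstream and 0.171% for all peaks. Start-spanning peaks are alone in having to hold a start by the rule, and whether the paired genes diverge or overlap was not tested.

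The strictest reading, a protein-coding gene, a start at the gene's 5′ end, a downstream summit and no other coding gene there, was met by 118 peaks (23.4% of 504). Their median fold was 3.38, with quartiles of 2.81 and 4.85, from a median of 11.5 RIP fragments, and 60 (50.8%) had a q-value under 0.05. That share was near the 48.8% of all peaks and below the 63.5% of promoter peaks downstream of the start. The median summit of the 118 peaks lay 195 bp downstream of the start.

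**Figure D4:**
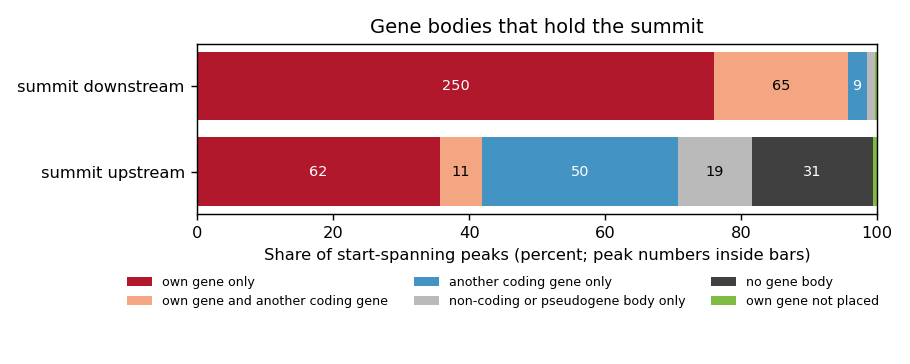
Share of start-spanning peaks (x axis, percent) by the gene body that holds the summit, for 329 peaks with downstream summits and 174 with upstream summits; numbers inside the bars are peaks. In the downstream bar 250 peaks lie in their own gene only, against 62 in the upstream bar, where 50 lie in another coding gene only and 31 in none; 1 peak in each bar could not be placed.

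Genes with a start-spanning peak commonly had stronger peaks elsewhere. Of 379 start-spanning peaks of protein-coding genes on the main chromosomes, 305 (80.5%) had at least 1 other peak in the gene's body, with a median highest fold of 5.55 for those other peaks and of 3.55 for the start-spanning ones. In 83 of the 305 the start-spanning peak had the higher fold. The largest of several peaks has an advantage over a single one by number alone, so these medians are not like for like.

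By kind of gene, 383 peaks were assigned to protein-coding genes (75.0%, compared with 80.3% downstream, 67.9% upstream and 73.2% of all peaks), 74 to long non-coding RNAs, 29 to transcribed pseudogenes, 23 to microRNAs, 1 to a small nucleolar RNA and 1 to another pseudogene. The median fold was 3.54 for protein-coding genes, 4.07 for long non-coding RNAs and 3.97 for microRNAs. Of the 74 long non-coding RNA peaks, 49 (66.2%) had a summit inside a protein-coding gene, and of the 23 microRNA peaks 19 (82.6%) did. Over all kinds of gene, a coding gene other than the assigned one held the summit in 26.9% of promoter-labelled peaks and 32.9% of all peaks. Shares over all long non-coding RNA or microRNA peaks are not given here, so these values are not particular to start-spanning peaks.

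For microRNAs the start in the table is the end of a hairpin, not the start of the primary transcript. The mature sequences of the 3 microRNA genes among the named peaks are shown with the seed, bases 2 to 8, in capitals, because the 3 differ in seed and each is a small stretch of its peak, which was 868 bp wide for MIR1260B, 913 bp for MIR922 and 2035 bp for MIR4292.
hsa-miR-1260b: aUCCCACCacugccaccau
hsa-miR-922: gCAGCAGAgaauaggacuacguc
hsa-miR-4292: cCCCUGGGccggccuugg

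MIR1260B had 71 RIP fragments against an input level of 1.48 and a fold of 18.8 (14.7 to 23.6), with its summit in the Notch coactivator gene MAML2 on the opposite strand. MIR922 had 59 RIP fragments against an input level of 2.0 and a fold of 13.0 (9.94 to 16.6), with its summit in RUBCN, an inhibitor of autophagy, on the same strand. MIR4292 had 86 RIP fragments against an input level of 8.88 and a fold of 5.69 (4.57 to 7.0), with its summit in RABL6, a GTPase-like gene on the same strand. Of the 23 microRNA peaks 16 had a q-value under 0.05, and the summit lay within the hairpin in 1, that of MIR941-1, with a fold of 3.15, which was picked out after its values were seen.

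Start-spanning peaks are rare for any gene: over all protein-coding genes 377 of 20056 (1.88%) had one, so that 0 or 1 among a few named genes is near the background. CRTC2, YTHDF2, METTL3, METTL14, FTO, MYC and EGFR had no start-spanning peak, although by nearest start all but CRTC2 had other peaks: 4 for YTHDF2, 1 for METTL3, 2 for METTL14, 6 for FTO, 1 for MYC and 7 for EGFR. PCIF1, the writer of m6Am, had a start-spanning peak of its own at chr20:45934310-45935022. It rested on 15 RIP fragments against an input level of 2.0, a fold of 3.54 (2.13 to 5.62), with a −log10 q of 1.66 and its summit 122 bp downstream of the start.

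Few genes of the lists compared, which were drawn up with earlier results of these data known, had a start-spanning peak. Against the 1.88% of all protein-coding genes, 20 of the 28 lists had none. Lists without any held the 11 m6A writers, the 16 erasers and readers, the 86 cytosolic ribosomal protein genes, the 18 classical CREB targets and the 24 immediate early transcription factors, of which 20 had a peak elsewhere by nearest start. Cell type markers gave none either. By nearest start 10 of 15 hepatocyte and 4 of 8 hepatoma oncofetal markers had a peak of some kind. So did 2 of 9 immune and 5 of 10 endothelial or stromal markers. The share of all coding genes with a peak by nearest start is not given here. The nearest-start counts, also that of the immediate early factors, therefore have no background. The counts for the other 8 lists are read against that 1.88%.

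Among transcription elongation genes, 2 of 28 had a start-spanning peak. CDK13, a kinase of the RNA polymerase II tail, had 48 RIP fragments against an input level of 3.85 and a fold of 6.56 (4.89 to 8.63). LARP7, which holds the 7SK RNA that restrains P-TEFb, had 31 RIP fragments against an input level of 5.0 and a fold of 3.48 (2.42 to 4.87). Both had a q-value under 0.05.

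The Hippo and Wnt list also had 2, of 48. FZD7, a Wnt receptor, had 51 RIP fragments against an input level of 2.0 and a fold of 11.2 (8.45 to 14.7), with the summit 441 bp upstream of an internal start and within the gene. GSK3B, the kinase that marks beta-catenin for destruction, had 83 RIP fragments against an input level of 14.0 and a fold of 3.62 (2.89 to 4.47). With the input held fixed, the counting interval of FZD7 lay wholly above that of GSK3B. Error in the input levels, 2.0 and 14.0, is not counted, and the difference was not tested.

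Single members came from the chromatin list (KDM5A, a demethylase of histone H3 lysine 4, fold 5.83, 1 of 63 genes), the mitochondrial ribosome (MRPL14, 5.29, 1 of 77), the p53 list (BBC3, the cell death gene PUMA, 3.22, 1 of 20) and the mRNAs with a terminal oligopyrimidine tract (EEF1D, 1 of 24). BBC3 had 10 RIP fragments against an input level of 1.3 and did not reach a q-value under 0.05. MRPL14 had its summit in its own body and that of TMEM63B on the opposite strand.

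C2H2 zinc finger genes, repressors of transposons and other targets, had start-spanning peaks in 11 of 509 (2.16%), near the 1.88% of all coding genes, and 5 of the 11 had a q-value under 0.05. The highest folds were 6.71 for ZNF132, 5.52 for ZNF841, 4.32 for ZNF580 and 3.98 for ZNF710. The ZNF132 peak had its summit in ZNF324B on the opposite strand, 357 bp upstream. Members of this family resemble each other in sequence, and how reads with several matches were treated is not given in the sources used here.

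Some genes carried 2 start-spanning peaks at separate starts, and these were picked out after their values were seen. NR3C1, the glucocorticoid receptor, had folds of 5.83 (3.89 to 8.44) and 4.31 (3.01 to 6.0) at internal starts 31276 and 32229 bp from the gene's end. NIF3L1 had folds of 7.39 and 4.22, and KCNMB3, a subunit of potassium channels, had 4.61 and 4.52. For PDE4D, a cyclic AMP phosphodiesterase, they were 3.33 and 2.86, and neither reached a q-value under 0.05.

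For 298 members the deposited start equalled a start in the RefSeq promoter table, and their windows of 250 bases before and 49 after the start base were set beside those of all 35114 starts. The start base was A in 41.9% (Wilson interval 36.5 to 47.6%) of the members, against 44.4% of all starts, and an A start preceded by C stood in 28.5%, against 29.6%. G was the start base in 44.3%, against 33.6%. Among members with a summit within 100 bp of the start, A was the start base in 34.5% (26.4 to 43.7%). The table's 44.4% lay inside the interval for all 298 members and just above that for the members with a nearby summit.

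Fold did not follow the start base in a simple way. The median fold was 3.75 over 125 members that start with A, 3.99 over 27 with C, 3.50 over 132 with G and 5.16 over 14 with T. The median for A lay between those for G and C, and the quartiles for A were 2.86 and 5.25.

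The m6A core GGAC was searched on both strands. On the gene's strand it stood in the 300-base window of 75.2% of the members (70.0 to 79.7%), against 66.3% of all starts, and on the other strand in 69.8% (64.4 to 74.7%), against 66.1%. Within the first 50 bases of the transcript it stood in 25.8% (21.2 to 31.1%), against 18.9%. Protein-coding genes made up 241 of the 298 members and 22197 of the 35114 starts. For them the share on the gene's strand was 78.0%, against 69.3%, and in the first 50 bases 27.8%, against 19.8%. For the 57 long non-coding RNA members these shares were 63.2%, against 61.3%, and 17.5%, against 17.4%. The shorter GAC, which every GGAC contains, was in 96.6% of member windows, against 96.3% of all. Of the 6 genes whose starts are printed, all had GGAC on their own strand in the window, with 3 copies for PPP1R9B and SLMAP, 2 for SLC35C1 and 1 for LOC115308161, PGBD3 and ZNF841. Not every strong peak did. Among starts of high significance that are not printed, those of BCAN, SHC3, OARD1 and EFNA5 had none, and these were picked out after their values were seen.

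Base composition also differed from that of all starts. A CpG observed over expected ratio above 0.6 was found in 67.8% of member windows (62.3 to 72.8%), against 48.8% of all starts, and median GC content was 64.2%, against 58.7%. Set against all starts, both neighbouring classes also had higher shares of CpG and of GGAC over the window. Over protein-coding starts alone these shares were 62.1% and 69.3%, and the neighbouring classes were not split by kind of gene. The CpG share was 75.4% for promoter peaks downstream of the start and 58.5% for those upstream. GGAC on the gene's strand stood in 69.8% and 73.3% of their windows, so the class with the higher CpG share had the lower GGAC share. Within the first 50 bases GGAC stood in 19.5% of both classes, close to the 18.9% of all starts. G was the start base in 37.8% and 38.3%. For members of protein-coding genes the CpG share was 71.8%, against 62.1% of protein-coding starts, and the A start 45.6%, against 50.1%. The part of composition in the motif shares was not tested. The CREB site TGACGTCA, a palindrome and so the same on both strands, was in the window of 1 member (0.336%, interval 0.0593 to 1.88%), an interval that holds the 1.85% of all starts. The shorter TGACG stood on either strand in 22.8% of member windows, against 24.6%. The member with the full site was the kinase gene STK38L, with a fold of 4.90 (3.37 to 6.93), named after its values were seen.

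**Figure D5:**
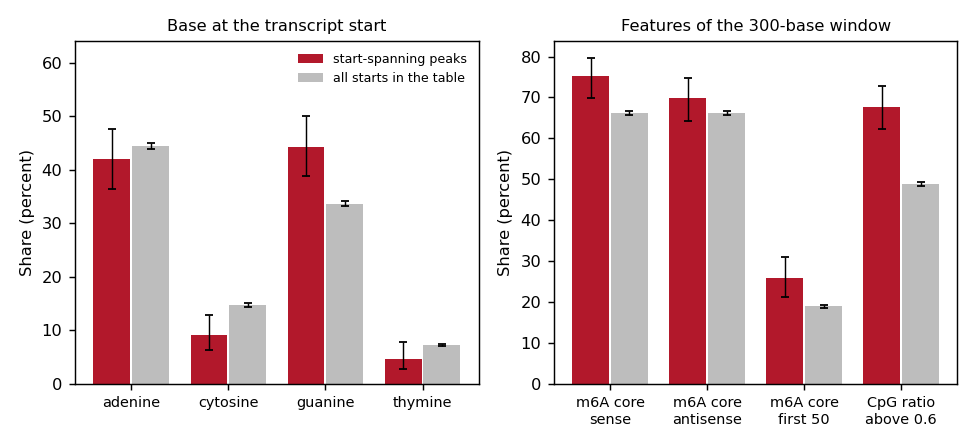
Share of starts (y axis, percent, bars from 0 with 95% Wilson intervals) by the base at the start (left) and by the m6A core motif and CpG ratio in the window (right), for 298 start-spanning peaks and all 35114 starts of the table. An adenine at the start is found in 41.9% of members, whose interval holds the 44.4% of the table, while the CpG ratio is above its threshold in 67.8% against 48.8%.

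By chromosome, members followed the promoter peaks with local exceptions. Chromosome 7 held 43 (8.53% of those on main chromosomes), where 5.70% of promoter peaks lay, and chromosome 19 held 38 (7.54%), where 8.37% did. The chromosome 7 members included duplicated loci such as the ARHGEF34P pseudogene, with 2 peaks of fold 4.08 and 3.91, where near-identical copies may share reads; it was picked out after its values were seen.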

How the data were processed

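Reads were aligned to hg38 with HISAT2 and peaks called with MACS2, per the submitters' processing notes; their versions and thresholds, and any removal of duplicates, were not given in the sources used here. From both libraries the authors deposited 1 table, of 39801 peaks. Per the file headers, each has a fold, the ratio of RIP to input signal at its summit. The −log10 p-value and −log10 q-value that the authors deposited stood under damaged column names and were identified by their values, since 99.99% of the deposited scores equal 10 times the first, rounded down, with a minimum of 1.3. The deposited promoter label reaches 3 kb from a start and takes precedence over exon and intron labels. Annotation distances, starts and genes are the authors'.

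Members and gene lists were chosen with earlier results of these data known. RIP fragments and input levels were recovered here from fold and p-value, with a pseudocount of 1 and a scaling factor of 0.642 (RIP library 1.56 times the input); whole fragments met both values for 100% of peaks within 0.001 in −log10 p, and for 98.2% only 1 number did. On 2000 peaks simulated with the same formula 100% were recovered, which checks the calculation and not the formula. Total depth is not stated. Gene bodies, strands, promoters and microRNAs came from RefSeq tables of GRCh38.p14, which shares its main chromosomes with hg38. Of the members, 7 peaks lay on other contigs. Named were the 10 peaks of highest fold, the 10 of highest −log10 p, the 5 widest, the 5 strongest of other gene kinds, up to 4 per list, and CRTC2, YTHDF2, PCIF1, METTL3, METTL14, FTO, MYC and EGFR in every case. Intervals are at 95% and cover counting error only, and without molecular identifiers a fragment need not be an independent molecule. Alternatives were stricter q-values and folds, a fragment minimum, a width limit, main chromosomes only, RefSeq starts and a margin of 50 bp. Python 3.11.15, pandas 2.3.3, numpy 2.4.6, scipy 1.17.1 and matplotlib 3.10.9 were used.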

Additional observations from a re-analysis of the deposited data

How the results depend on the processing

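No paired analysis was possible because there was 1 library in each group, so no replicate could be left out either. Of 60 recomputed main values, 29 stayed within 1.5 times the count or within the interval of the reported value, and 31 moved. A reversal was defined only for the median summit position, as a change of sign, and none occurred. With a q-value under 0.05 the number of start-spanning peaks was 310, their share of all peaks 1.59%, their median fold 4.57 and their share with a fold of at least 4 70.0%. With a q-value under 1e-05 these were 159, 1.55%, 5.86 and 81.1%, the median summit position was 42 bp and 57.2% of summits were downstream. With a fold of at least 4 the number was 217, the share 1.61%, the share with a q-value under 0.05 100% and that of downstream summits 60.4%. That 100% was fixed in advance, since all 13499 peaks of the list with this fold had a q-value under 0.05. With more than 3 RIP fragments the share was 1.47%, the median fold 3.92, the share with a q-value under 0.05 67.4% and that with a fold of at least 4 47.2%. Under 600 bp of width the number was 329, the share 1.03%, the median fold 3.19, the shares by q-value and fold 47.4% and 31.0%, and the protein-coding share 79.0%. With the start of the RefSeq table inside the peak in place of the deposited start, the share was 1.07% and the protein-coding share 70.4%; 327 of those 425 peaks were also members, and 184 members were not among them. With the start at least 50 bp inside both edges the number was 339, the share 0.852%, the median position 33 bp, the downstream share 58.7% and the protein-coding share 70.8%. A filter on q-value or fold gave no value for the share defined by the same cut, and fewer peaks follow from each filter by construction; other causes were not tested. Depth limits single folds, since 51 members rested on 3 fragments or fewer.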
